A study of Mus musculus with 20 samples.

Results

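Expression of the cytokine genes of the Th17 axis was examined in mouse ileal mucosa: Il17a, Il17f and Il22;Iltifb, which encode the secreted products of IL-17-producing lymphocytes, and Il23a, which encodes a subunit of the cytokine that maintains those cells. The members were all assays of the panel whose symbol is one of these 4 names, 5 of 648 assays in all. The assays are Il17a_Mm00439618_m1, Il17f_Mm00521423_m1, Il22;Iltifb_Mm00444241_m1, Il23a_Mm01160011_g1 and Il23a_Mm00518984_m1. RNA was profiled by real-time PCR on TaqMan OpenArray cards that carry an inflammation panel, with 4 groups of 5 samples, 20 in all. The CEC group received DNBS into the rectum and CEC by mouth, the Nissle group received DNBS into the rectum and Nissle by mouth, and the DNBS group received DNBS into the rectum and PBS by mouth. The healthy group received PBS by both routes, so DNBS was shared by the other 3 groups. DNBS is a hapten used to provoke colitis in rodents and PBS is a buffered saline. Nissle is the name of a probiotic Escherichia coli strain, and the labels do not explain CEC.

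Strain, age and sex are not in the labels. The design text mentions pooling of equal amounts of RNA from each mouse, so whether 1 sample stands for 1 mouse was not settled, and p-values cover only the variation from sample to sample here, part of which may be technical. For Nissle 3, 4 and 5 one label names the healthy controls, whereas their titles, descriptions and treatments name Nissle. They stayed with the Nissle samples, and each count and member difference was also computed without them. The samples were labelled ileal mucosa, and the epithelial markers Apoa1, Ccl25 and Krt8 had values in every sample. Between 570 and 594 assays per sample gave a value.

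IL-23, a pair of the Il23a product and the Il12b product, is made by dendritic cells and macrophages. It acts through Il23r on T helper cells, γδ T cells and innate lymphoid cells, which then release IL-17A, IL-17F and IL-22. IL-17A and IL-17F share a receptor and induce neutrophil-attracting chemokines, while IL-22 acts on epithelium through Il22ra1 and Il10rb and induces antimicrobial and acute-phase proteins. In the ileum these cytokines take part in the defence of the mucosal barrier against gut bacteria.

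Il17a and Il17f lie next to each other on chromosome 1 with 0 annotated genes between them. Il22 and its near-identical copy Iltifb lie on chromosome 10 with 6 pseudogenes between them. A single assay carries both names, so the signal of Il22 and that of Iltifb cannot be told apart. Promoter sequences were available for 3 of the 4 members. They are shown because those of Il17a and Il17f hold a motif, on opposite strands, that the Il22 sequence lacks. Each runs from 250 bases before to 50 bases after the start of the gene, 5′ to 3′, from RefSeq on GRCm38.p6. Capitals mark TATAAA (the core of a TATA box), AGGTCA (the half-site bound by ROR factors; TGACCT on the other strand) and TGANTCA (AP-1 site). Il17a is chr1:20730655-20730954 on the plus strand, Il17f is chr1:20784221-20784520 on the minus strand, and Il22 is chr10:118204714-118205013 on the plus strand.
Il17a: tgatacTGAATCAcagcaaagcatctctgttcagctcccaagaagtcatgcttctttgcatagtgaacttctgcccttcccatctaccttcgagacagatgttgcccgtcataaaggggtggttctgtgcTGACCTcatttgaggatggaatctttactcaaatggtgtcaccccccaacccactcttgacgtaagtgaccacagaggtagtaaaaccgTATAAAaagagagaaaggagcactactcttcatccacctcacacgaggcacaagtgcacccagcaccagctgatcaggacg
Il17f: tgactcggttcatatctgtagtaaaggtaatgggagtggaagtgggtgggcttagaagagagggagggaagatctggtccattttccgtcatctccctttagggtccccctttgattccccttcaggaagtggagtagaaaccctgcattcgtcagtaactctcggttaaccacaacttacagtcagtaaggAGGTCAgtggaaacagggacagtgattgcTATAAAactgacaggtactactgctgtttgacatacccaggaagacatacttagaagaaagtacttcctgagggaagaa
Il22: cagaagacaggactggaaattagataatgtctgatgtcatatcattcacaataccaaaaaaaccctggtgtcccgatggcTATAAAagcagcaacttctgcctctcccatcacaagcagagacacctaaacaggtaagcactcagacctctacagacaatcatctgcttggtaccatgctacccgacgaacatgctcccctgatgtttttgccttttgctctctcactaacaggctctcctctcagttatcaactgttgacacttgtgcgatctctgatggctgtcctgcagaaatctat
TATAAA began 31 bases before the start in Il17a, 29 bases before in Il17f and 170 bases before in Il22. An AGGTCA half-site lay 58 bases before the start in Il17f on the gene's strand and 120 bases before in Il17a on the opposite strand. The AP-1 letters, which read as a match on both strands, lay 244 bases before the start of Il17a. No marked motif overlapped another, and TTCNNNGAA (STAT site) was in none of the 3 windows. Searched on both strands, TATAAA was in 13.6% of the 32851 promoter windows of the same length, AGGTCA in 16.3%, TGANTCA in 7.81% and TTCNNNGAA in 8.30%. Both TATAAA and AGGTCA were in 2.42%. A match is a description of letters, not evidence of binding.

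The deposited values are cycle thresholds (Ct), the PCR cycle at which fluorescence crosses a set line, so a lower Ct means more template. The relative level used here is a sample's mean Ct over the 544 assays that amplified in all 20 samples, minus the Ct of the assay. It is on a log2 scale on the assumption that product doubles at each cycle. A Ct of 40 stands for no amplification (undetermined). Differences between groups are taken within 1 assay. A level set against that of another assay, or summed over assays, also carries how well each assay amplifies, so marker sums lean to the assays with the lowest Ct. Il17a and Il22;Iltifb amplified in 20 of 20 samples, Il17f in 18, Il23a in 11 by the g1 assay and in 7 by the m1 assay. Values came later than the sample's mean Ct, apart from Il22;Iltifb in Nissle 1 and DNBS 2. Ct ran between 23.7 and 32.0 for Il17a, 25.3 and 31.7 for Il17f, 22.4 and 31.9 for Il22;Iltifb, 25.7 and 32.8 for Il23a g1, and 24.6 and 29.4 for Il23a m1. Levels were tested with limma across the 569 assays that had at least 3 values in each group, with Benjamini-Hochberg adjustment over all of them at 0.05. Il17a, Il17f and Il22;Iltifb passed this filter, whereas both Il23a assays failed it and were compared by detection.

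Il22;Iltifb, the epithelium-directed cytokine of the axis, had the widest range of the 5 member assays over the 20 samples (8.61 log2 units). Its relative level was −2.10, −2.06, −6.73, −3.43 and −6.65 in CEC samples 1, 3, 5, 7 and 8. In Nissle samples 1 to 5 it was 0.21, −6.28, −4.61, −6.88 and −5.95. In DNBS samples 1 to 5 it was −4.44, 0.12, −5.60, −2.29 and −2.48, against −3.96, −8.40, −7.55, −6.09 and −6.96 in healthy samples 1b, 3, 4, 5 and 6. The samples above the highest healthy one were 3 CEC samples, 1 Nissle sample and 3 DNBS samples, and none of the 15 DNBS-treated samples was below the lowest healthy one. The CEC samples lay apart as 3 high and 2 low values, and the Nissle group held 1 high value, Nissle 1. The median Ct was 27.7 in CEC, 28.9 in Nissle and 26.3 in DNBS samples, and 30.5 in healthy samples.

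In order of group mean, Il22;Iltifb averaged −2.94 ± 2.20 in DNBS samples, −4.19 ± 2.34 in CEC samples, −4.70 ± 2.87 in Nissle samples and −6.59 ± 1.70 in healthy samples (SD, n = 5 each). No neighbours in that order differed beyond their spread. DNBS samples were 3.65 log2 units above healthy samples (SE 1.33, 95% interval 0.89 to 6.41), a 12.6-fold difference with an interval of 1.85 to 85.3. The limma p was 0.0120 and the adjusted p 0.158, so the difference did not pass the threshold. Its p ranked 42 of 569. Healthy 3, 4 and 6 had a late Ct (31.9, 30.5 and 30.6). With Ct above 30 left missing, no Il22;Iltifb difference could be fitted. The difference was 2.40 in CEC over healthy samples (5.27-fold, interval −0.36 to 5.16, limma adjusted p = 0.803). It was 1.89 in Nissle over healthy samples (3.70-fold, interval −0.87 to 4.65, limma adjusted p = 0.575). Without the 3 Nissle samples of contradictory label it was 3.56 (limma adjusted p = 0.258), a fit that leaves Nissle 1, the high value, and Nissle 2. Without Nissle 1 alone it was 0.66. Over all 15 DNBS-treated samples it was 2.65 (6.26-fold, SE 1.08, interval 0.39 to 4.90, limma adjusted p = 0.359). Leaving out 1 sample at a time gave 2.89 (without DNBS 2) to 4.32 (without DNBS 3) for DNBS over healthy samples, with adjusted p between 0.0653 and 0.371. With samples weighted by their quality in limma (array weights), the DNBS difference was 3.20 and passed, with an adjusted p of 0.0484; under those weights 90 of 569 assays passed in that comparison, against 1 without them. In bulk mucosa, fewer cells of a type and less RNA per cell cannot be told apart.

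**Figure D1:**
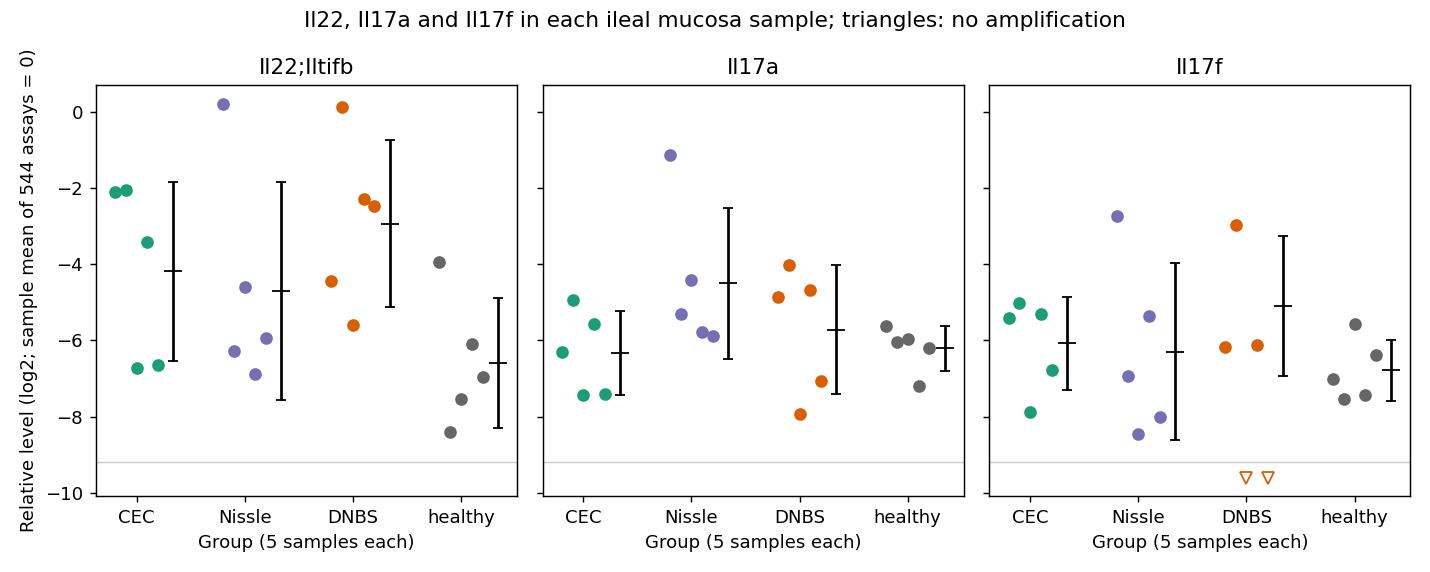
Relative level (log2) of Il22;Iltifb, Il17a and Il17f by group, 1 point per sample, with the group mean and SD as bars; open triangles under the line are samples without amplification. All 3 DNBS-treated groups have an Il22;Iltifb mean above that of the healthy group, while DNBS 3 and DNBS 5 are undetermined for Il17f.

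Between the DNBS-treated groups, the Il22;Iltifb difference was −1.26 in CEC over DNBS samples (interval −4.02 to 1.51, limma adjusted p = 0.712). In Nissle over DNBS samples it was −1.76 (interval −4.53 to 1.0, limma adjusted p = 0.853). Without the 3 Nissle samples of contradictory label, which leaves Nissle 1 and Nissle 2, it was −0.096. Leaving out 1 sample gave −2.99 (without Nissle 1) to −1.0 (without DNBS 2). For CEC over DNBS samples leaving out 1 sample gave −1.92 (without DNBS 3) to −0.49 (without DNBS 2). CEC over Nissle samples gave 0.51 (interval −2.25 to 3.27, limma adjusted p = 0.998). Neither oral treatment differed from oral PBS beyond the spread, and the intervals reach differences of more than 4 log2 units in the lower direction.

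Il17a, the signature cytokine of Th17 cells, had relative levels of −6.32, −4.93, −7.43, −5.56 and −7.40 in CEC samples 1, 3, 5, 7 and 8. The Nissle samples 1 to 5 had −1.13, −5.31, −4.41, −5.77 and −5.90. The DNBS samples 1 to 5 had −4.87, −4.03, −7.94, −4.69 and −7.06, against −5.64, −6.04, −5.96, −7.20 and −6.20 in healthy samples 1b, 3, 4, 5 and 6. The groups overlapped throughout, the healthy samples lay closest together, and the DNBS group had 3 samples above the highest and 1 below the lowest healthy sample. Il17a averaged −4.50 ± 1.97 in Nissle, −5.72 ± 1.69 in DNBS, −6.33 ± 1.11 in CEC and −6.21 ± 0.59 in healthy samples (SD, n = 5 each). The order of the means was Nissle, DNBS, healthy and CEC, and no neighbours in it differed beyond their spread.

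The largest Il17a differences were those with the Nissle group on one side. Nissle samples were 1.70 log2 units above healthy samples (3.26-fold, SE 0.88, interval −0.13 to 3.54, limma adjusted p = 0.500), and 3 of 5 exceeded the highest healthy sample. CEC over Nissle samples gave a log2 difference of −1.82 (interval −3.66 to 0.01, limma adjusted p = 0.998), and 3 of 5 CEC samples lay below the lowest Nissle sample. Neither passed, and both rested in large part on Nissle 1: without it the differences were 0.86 and −0.98. Without the 3 Nissle samples of contradictory label, which leaves Nissle 1 and Nissle 2, they were 2.99 and −3.11 (limma adjusted p = 0.173 and 0.495). DNBS over healthy samples gave 0.49 (interval −1.35 to 2.33, limma adjusted p = 0.850) and CEC over healthy samples −0.12 (interval −1.96 to 1.71, limma adjusted p = 0.977). The mean of the DNBS-treated groups over healthy gave 0.69 (limma adjusted p = 0.712), with 8 of 15 samples above the highest and 3 below the lowest healthy sample. CEC over DNBS samples gave −0.61 (limma adjusted p = 0.792) and Nissle over DNBS samples 1.21 (limma adjusted p = 0.853). Leaving out 1 sample gave −1.17 (without DNBS 3) to −0.19 (without DNBS 2) for CEC over DNBS samples. For Nissle over DNBS samples it gave 0.37 (without Nissle 1) to 1.64 (without DNBS 2). That difference was 2.50 without the 3 Nissle samples of contradictory label, which leaves Nissle 1 and Nissle 2. For DNBS over healthy samples leaving out 1 sample gave 0.067 (without DNBS 2) to 1.04 (without DNBS 3).

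Il17f, whose product pairs with IL-17A or with itself, was the only one of the 3 tested members with missing samples. Its relative level was −5.41, −5.02, −7.88, −5.32 and −6.79 in CEC samples 1, 3, 5, 7 and 8, and −2.75, −6.93, −8.45, −5.37 and −8.00 in Nissle samples 1 to 5. It was −6.19, −2.98 and −6.12 in DNBS samples 1, 2 and 4, against −7.01, −7.54, −5.58, −7.43 and −6.40 in healthy samples 1b, 3, 4, 5 and 6. DNBS 3 and DNBS 5 did not amplify, while 1 DNBS sample exceeded every healthy sample. Detection in 3 of 5 DNBS samples, against 5 of 5 healthy samples, did not pass Fisher's exact test (two-sided, p = 0.444, adjusted p = 0.946). DNBS 3 and DNBS 5 also had the lowest Il17a levels of their group. Their mean Ct of the common assays was between 23.8 and 24.1, in the upper part of the range of 22.6 to 24.3 over all samples. Il17f did amplify in CEC 7, Nissle 4 and healthy 1b, with a mean Ct of 24.3, 24.1 and 23.9. The part of overall template in the detection of Il17f was not tested.

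In order of mean, Il17f was −5.10 ± 1.83 in DNBS samples (SD, n = 3), −6.08 ± 1.21 in CEC, −6.30 ± 2.31 in Nissle and −6.79 ± 0.81 in healthy samples (SD, n = 5 each), with no neighbours beyond their spread. Missing values were left out of the fit, so the DNBS mean describes only the samples that amplified. DNBS over healthy samples gave 1.69 (3.24-fold, SE 1.13, interval −0.67 to 4.06, limma adjusted p = 0.521). With the Ct of 40 kept as a value for DNBS 3 and DNBS 5, the same difference turned to −2.69. CEC over healthy samples gave 0.71 (limma adjusted p = 0.857), Nissle over healthy samples 0.49 (limma adjusted p = 0.878) and all DNBS-treated over healthy samples 0.97 (limma adjusted p = 0.637). CEC over DNBS samples gave −0.99 (limma adjusted p = 0.723), Nissle over DNBS samples −1.20 (limma adjusted p = 0.853) and CEC over Nissle samples 0.22 (limma adjusted p = 0.998). No direction is given for Il17f, because its sign depended on how undetermined samples were treated and, in Nissle over healthy and CEC over Nissle samples, on single samples.

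**Figure D2:**
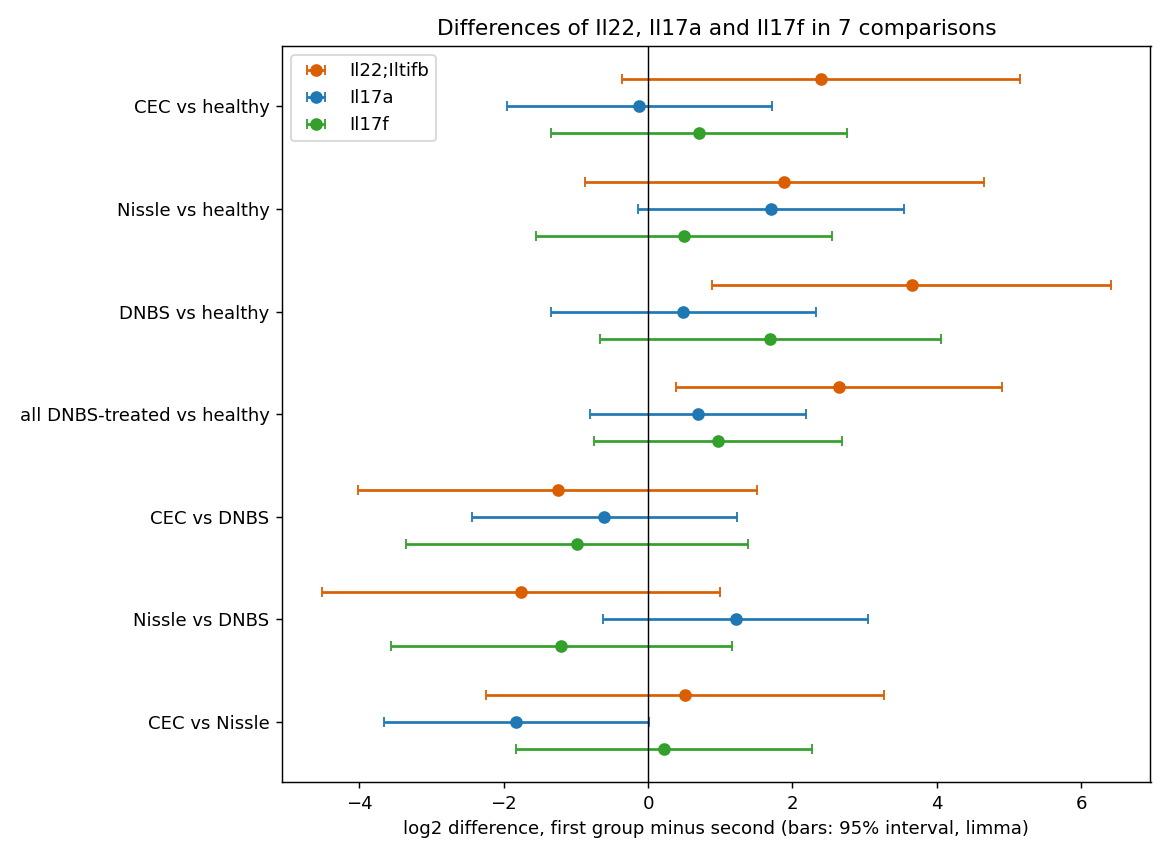
Log2 difference of Il22;Iltifb, Il17a and Il17f in each of the 7 comparisons, first-named group minus second, with 95% intervals from limma. The Il22;Iltifb intervals of DNBS and of all DNBS-treated samples over healthy samples lie above 0, and the other intervals include 0.

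Set against the whole panel, the members' results were as follows. Over all 569 tested assays, 1 assay (0.176%) passed the adjusted threshold in CEC over healthy samples, 1 (0.176%) in Nissle over healthy, 1 (0.176%) in DNBS over healthy and 1 (0.176%) in all DNBS-treated over healthy samples. This was Atrn, which encodes attractin, in each case; it was named after its values were seen. In limma, 0 (0%) passed in CEC over DNBS, Nissle over DNBS and CEC over Nissle samples. None of the 3 tested members passed in any of the 7 comparisons. With the replicate number as a block, 2 assays passed in DNBS over healthy samples, and Il22;Iltifb had a difference of 3.61 (SE 1.66, limma adjusted p = 0.524). At an unadjusted p under 0.05, Il22;Iltifb was the 1 member of 3 in DNBS over healthy samples, where 83 assays (14.6%) reached it and 38 (6.68%) did so as higher. It was also the 1 of 3 in all DNBS-treated over healthy samples, where 69 (12.1%) reached it and 23 (4.04%) did so as higher. In the other 5 comparisons 0 of 3 members reached it. The panel's shares there were 3.87% in CEC over healthy samples (1.76% as higher), 9.49% in Nissle over healthy (2.81% as higher), 10.7% in CEC over DNBS, 4.22% in Nissle over DNBS and 1.41% in CEC over Nissle samples.

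Il23a, the subunit particular to IL-23, was at the edge of detection by both of its assays. The g1 assay, a type that may also amplify genomic DNA, gave a value in 3 of 5 CEC, 1 of 5 Nissle, 5 of 5 DNBS and 2 of 5 healthy samples. The m1 assay, which spans an exon junction, gave one in 1 of 5 CEC, 1 of 5 Nissle, 3 of 5 DNBS and 2 of 5 healthy samples. By both assays the DNBS group had the most samples with a value. Both assays amplified in 5 samples (CEC 3, Nissle 1, DNBS 1, DNBS 2 and DNBS 4). There were 6 samples with a value only in g1, 2 only in m1 (healthy 1b and healthy 3) and 7 in neither, of which 4 were Nissle samples.

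Detection of Il23a by g1 in 1 of 5 Nissle samples, against 5 of 5 DNBS samples, had a two-sided Fisher's exact p of 0.0476 and an adjusted p of 1. DNBS over healthy samples, 5 of 5 against 2 of 5, gave an exact p of 0.167 and an adjusted p of 0.917. The smallest p that 5 against 5 samples allow is 0.00794. Among all assays detected in some but not all samples, an unadjusted p under 0.05 was reached by 3.17% of 63 in CEC over healthy samples, 4.76% of 63 in Nissle over healthy, 3.03% of 66 in DNBS over healthy and 5.19% of 77 in all DNBS-treated over healthy samples. The shares were 1.75% of 57 in CEC over DNBS, 3.51% of 57 in Nissle over DNBS and 1.67% of 60 in CEC over Nissle samples, and 0% passed Fisher's test after adjustment in each of the 7. Samples with an Il23a g1 value had a median mean Ct of 23.1, against 23.6 in samples without one. For m1 these were 23.0 and 23.6. The part of overall template in the detection of Il23a was not tested.

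Where Il23a amplified, its g1 level was −6.59, −3.28 and −5.85 in CEC samples 3, 5 and 8, and −3.14 in Nissle 1. It was −5.53, −6.13, −8.72, −6.67 and −6.19 in DNBS samples 1 to 5, against −7.18 and −5.68 in healthy samples 4 and 6. Nissle 1 and CEC 5 stood above the rest, and no group with over 1 value was clear of the others. CEC 5 had a g1 Ct of 26.3 but no value by m1, so its level rests on g1 alone. By m1 the level was −5.56 in CEC 3, −2.05 in Nissle 1 and −6.41, −4.10 and −5.64 in DNBS samples 1, 2 and 4, against −5.18 and −5.25 in healthy samples 1b and 3. In samples with both values, g1 minus m1 was −1.03 in CEC 3, −1.09 in Nissle 1 and 0.88, −2.03 and −1.03 in DNBS samples 1, 2 and 4, so the assays did not keep a constant offset. With the filter lowered to 1 value per group, the smallest limma adjusted p of either assay was 0.490, and with the Ct of 40 kept as a value it was 0.397.

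**Figure D3:**
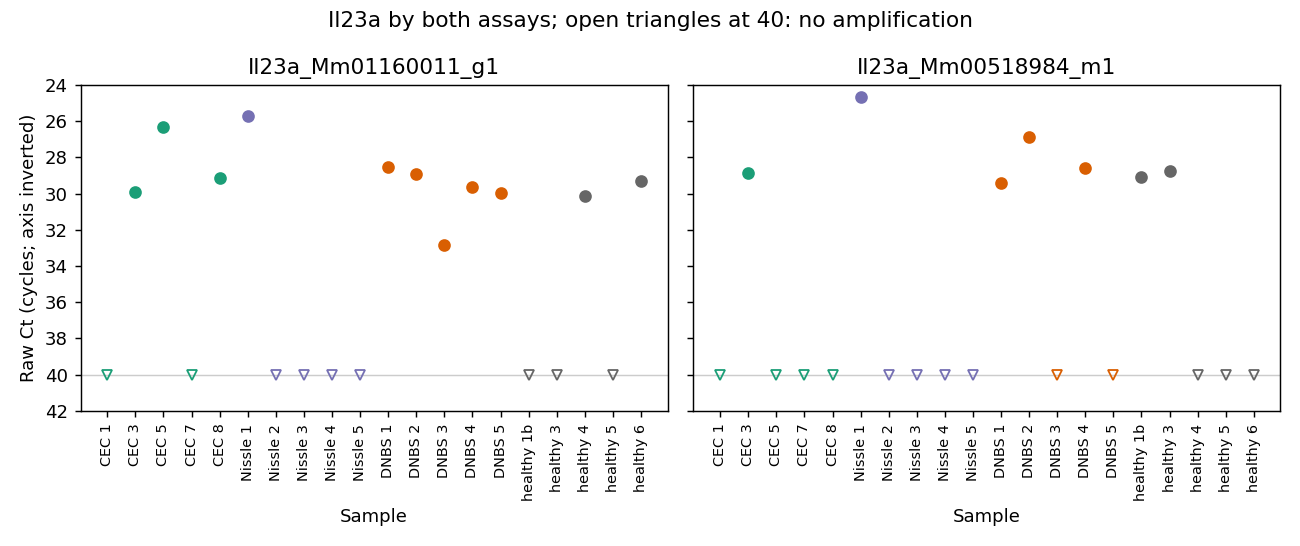
Raw Ct of both Il23a assays in every sample, by group, with the axis turned so that more template is up; open triangles at 40 are samples without amplification. The g1 assay gave a value in all 5 DNBS samples and in 1 Nissle sample.

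Nissle 1 was the highest of all samples in 5 of 5 member assays. DNBS 2 came second in Il17a, Il17f, Il22;Iltifb and Il23a m1, and CEC 5, which had no value by m1, in Il23a g1. Nissle 1 also had the lowest mean Ct of the common assays (22.6) and the highest summed level of the 7 neutrophil markers (7.18). Its summed T-cell level (Cd4 and Cd28) was −1.53 and its summed innate lymphoid level (Il7r and Kit) −0.05, the lowest of all samples for both. Without Nissle 1, the Nissle over healthy difference was 0.66 for Il22;Iltifb and −0.40 for Il17f.

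Across samples the secreted cytokines moved together in part. For the members 6 pairs were computed, with two-sided permutation tests and Benjamini-Hochberg adjustment over them. Values were permuted without regard to group, so the p-values also take in differences between groups, and r within groups was not tested. Il17a and Il22;Iltifb had r = 0.62 and rho = 0.53 over 20 samples (permutation p = 0.00264 and 0.0178, adjusted 0.00792 and 0.0681). Without Nissle 1 and DNBS 3 r was 0.49, and within groups it was 0.78. Il17f and Il22;Iltifb had r = 0.71 and rho = 0.54 over 18 samples (permutation p = 0.00081 and 0.0227, adjusted 0.00486 and 0.0681). Without Nissle 1 and DNBS 2 r was 0.41, and within groups it was 0.66. Il17a and Il17f had r = 0.64 and rho = 0.43 over 18 samples (permutation p = 0.00513 and 0.0771, adjusted 0.0103 and 0.154). Without Nissle 1 and CEC 5 r was 0.34, and within groups it was 0.67. The 3 values of r passed after adjustment and none of the values of rho did, and r was lower without the extreme samples. The share of all assays with such an r was not counted. Genes outside the members had a higher r: S100a8 with Il22;Iltifb (0.86), Il1rn with Il17a (0.84) and Il6 with Il17f (0.80). Whether the relations are particular to the members was not tested. The Il23a g1 assay had r = 0.43 with Il17a and 0.19 with Il22;Iltifb (n = 11 each), and 0.03 with Il17f (n = 9, exact permutation p = 0.916). Without the farthest samples the sign turned in all 3: r was −0.48 with Il17a (without Nissle 1 and DNBS 3), and −0.18 with Il22;Iltifb and −0.88 with Il17f (without Nissle 1 and DNBS 2).

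The genes with the pattern most like each member were named as the top 3 by Pearson's r over at least 15 shared samples, from 564 to 570 assays compared. For Il22;Iltifb they were the calprotectin gene S100a8 (assay Mm00496696_g1, r = 0.86), the endothelial selectin Sele (0.84 over 15 samples) and the neutrophil chemokine Cxcl3 (0.82), which without Nissle 1 had 0.83, 0.79 and 0.79. For Il17a they were the IL-1 receptor antagonist Il1rn (0.84), Cxcl3 (0.81) and Il1b (assay Mm01336189_m1, 0.80), which without Nissle 1 had 0.67, 0.63 and 0.63. For Il17f they were Il6 (0.80), the pentraxin Ptx3 (0.77) and Cxcl3 (0.76), over 18 samples, which without Nissle 1 had 0.70, 0.65 and 0.64. Cxcl3 was in all 3 sets.

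Among the 11 genes upstream or partnered with the axis, all measured and tested, none passed in limma, and the smallest adjusted p in DNBS over healthy samples was 0.122. In DNBS over healthy samples 6 of 11 had a higher mean, with a median difference of 0.07, against −0.07 over all 569 assays, of which 44.6% had a higher mean. Il6, a cytokine that starts Th17 differentiation, had differences of 1.77 in CEC, 2.96 in Nissle and 4.62 in DNBS over healthy samples (limma adjusted p = 0.803, 0.488 and 0.122). Il1b, which promotes IL-17 production, had −0.17, 1.20 and 1.81 in that order by its assay Mm99999061_mH. Il12b, which encodes the chain that pairs with the Il23a product, had −0.16, 0.19 and −0.47. At an unadjusted p under 0.05 there were 3 of 11 in DNBS over healthy samples (Il6, Il1b and Icosl), 2 in Nissle over healthy (Il6 and Tgfb2) and 0 in CEC over healthy samples. The panel's shares were 14.6%, 9.49% and 3.87% in that order. In CEC over DNBS samples there were 2 of 11, Il1b (−1.98) and Il6 (−2.85), and in Nissle over DNBS samples 1, Icosl (0.69), with panel shares of 10.7% and 4.22%.

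Of 17 named receptors, 12 were measured and tested, and none passed in limma. In CEC over healthy samples 2 were higher and 10 lower (median −0.24), in Nissle over healthy 2 and 10 (median −0.39) and in DNBS over healthy 5 and 7 (median −0.22). The panel medians were −0.08, −0.10 and −0.07, and 43.9% of assays had a higher mean in CEC, 42.2% in Nissle and 44.6% in DNBS over healthy samples. Il22ra1, the IL-22 receptor chain of epithelium, had levels of 1.42, 1.37, 2.24, 2.08 and 2.22 in CEC samples 1, 3, 5, 7 and 8, and 1.37, 1.88, 1.45, 1.27 and 2.11 in Nissle samples 1 to 5. It had 1.41, 1.29, 1.5, 1.16 and 1.86 in DNBS samples 1 to 5, against 2.23, 2.12, 2.15, 1.96 and 2.04 in healthy samples 1b, 3, 4, 5 and 6. The 5 DNBS values were below all 5 healthy values, as they were for 14 of 552 assays (2.54%), while 10 assays (1.81%) were higher without overlap. The difference was −0.66 (SE 0.23, limma adjusted p = 0.158) in DNBS, −0.49 in Nissle and −0.24 in CEC over healthy samples, and did not pass. The epithelial markers Krt8, Apoa1 and Ccl25 had differences of −0.72, −0.65 and −1.49 in DNBS over healthy samples (smallest limma adjusted p = 0.150), and the part of epithelial content in the Il22ra1 level was not tested.

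Il22ra2, a secreted protein that binds IL-22 and withholds it from its receptor, had levels of −3.16, −2.95, −1.20, −0.56 and −1.24 in CEC samples 1, 3, 5, 7 and 8. The Nissle samples 1 to 5 had −3.96, −2.39, −2.29, −1.42 and −1.84. The DNBS samples 1 to 5 had −2.76, −3.51, −1.54, −3.44 and −0.10, against −1.72, −1.30, −0.98, −0.02 and −0.52 in healthy samples 1b, 3, 4, 5 and 6. The groups overlapped, with Nissle 1 the lowest of all. The difference over healthy samples was −0.91 in CEC, −1.47 in Nissle and −1.36 in DNBS samples (DNBS SE 0.65, limma adjusted p = 0.331). Il23r, which binds IL-23, had 0.12 in CEC, −0.28 in Nissle and −0.40 in DNBS, and Il17ra, the shared IL-17 receptor chain, had −0.30, −0.38 and 0.02 in that order.

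Samples with a higher Il22;Iltifb level tended to have lower levels of several receptor genes, among them those whose products bind IL-22. These relations were chosen after values were seen, and 12 were computed, 1 for each tested receptor. The permutations ignored the groups, so their p-values also take in differences between groups, and r within groups was not tested. Il22ra2 had r = −0.65 and rho = −0.63 with Il22;Iltifb over 20 samples (permutation p = 0.00239 and 0.0036, adjusted 0.0213 and 0.0432). Its r was −0.45 without Nissle 1 and DNBS 2, and −0.58 within groups. Il22ra1 had r = −0.61 and rho = −0.58 (permutation p = 0.00533 and 0.00808, adjusted 0.0213 and 0.0485). Its r was −0.51 without Nissle 1 and DNBS 2, and −0.47 within groups. Il10rb, the second chain of the IL-22 receptor, had r = −0.60 and rho = −0.48 (adjusted permutation p = 0.0213 and 0.102), and −0.34 without Nissle 1 and DNBS 2. Il17rb had r = −0.52 (adjusted permutation p = 0.0454) and −0.17 without those samples, on which its relation rests. The other 8 receptors ranged between −0.48 and 0.30 and did not pass, with Il12rb2 at −0.48 and Tgfbr1 at −0.44. Negative relations were thus not confined to genes whose products bind IL-22. The share of all assays with such an r was not counted, so whether these relations are particular to receptors was not tested. The values share the reference mean of each sample.

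**Figure D4:**
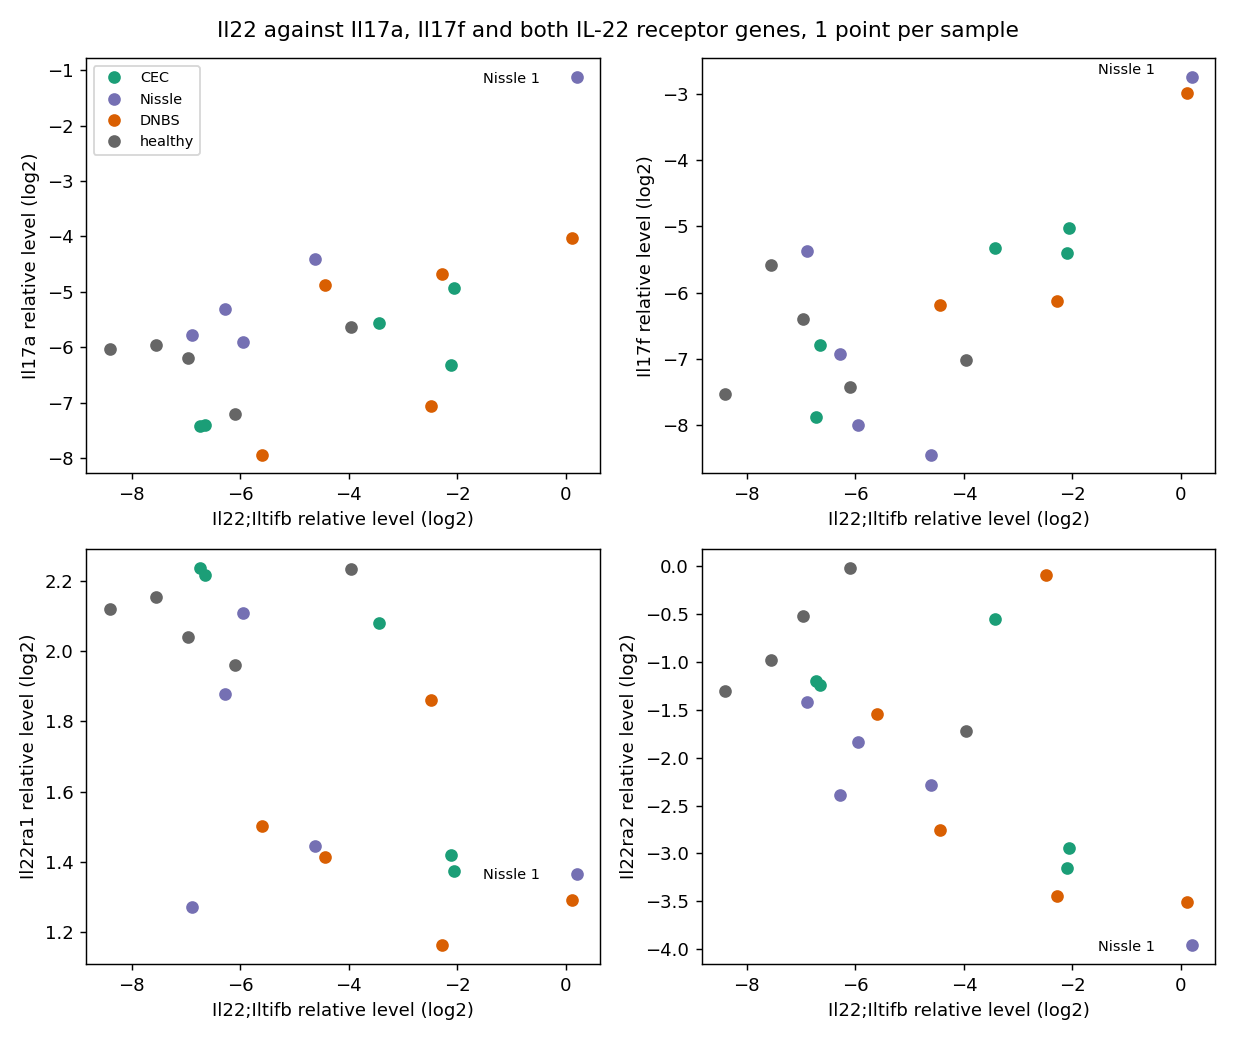
Relative level (log2) of Il22;Iltifb on the horizontal axis against Il17a, Il17f, Il22ra1 and Il22ra2, 1 point per sample coloured by group, with Nissle 1 named. Nissle 1 is at the top right for Il17a and Il17f and at the lower right for both receptor genes, and DNBS 2 lies near it in Il22;Iltifb.

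Of 18 named genes for the transcription and signalling of these lymphocytes, 5 were measured and tested (Stat3, Jak1, Jak2, Ccr6 and Foxp3), and none passed in limma. In each DNBS-treated group 1 of 5 was higher than in healthy samples, with medians of −0.08 in CEC, −0.36 in Nissle and −0.29 in DNBS. Over the panel 43.9%, 42.2% and 44.6% of assays had a higher mean in that order, with medians of −0.08, −0.10 and −0.07. Stat3, the signal transducer of IL-6, IL-23 and IL-22, had differences of −0.11 in CEC, −0.51 in Nissle and −0.16 in DNBS over healthy samples. Ccr6, a chemokine receptor of Th17 cells and B cells, had −0.07, −0.50 and −1.54 in that order by a single-exon assay. Of 8 relatives of the cytokines, 6 were measured and 1, Il17d, was tested (0.35, −0.42 and −0.19 over healthy samples, none passing). Il17c, an epithelial IL-17 relative, amplified in 2 of 5 CEC, 5 of 5 Nissle, 3 of 5 DNBS and 3 of 5 healthy samples, Il19 in 3 of 20 samples, and Il10, Il20 and Il24 in 0 of 20.

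Of 25 named target genes of IL-17 and IL-22, 17 were measured and 16 tested, and none passed in limma. In DNBS over healthy samples 16 of 16 had a higher mean, with a median difference of 1.18, against −0.07 over all assays. CEC over healthy samples had 15 higher and 1 lower (median 0.73), Nissle over healthy 12 and 4 (median 0.75) and all DNBS-treated over healthy 16 and 0 (median 0.94). Over the panel 43.9%, 42.2% and 43.4% of assays had a higher mean in these 3 comparisons. An unadjusted p under 0.05 was reached by 2 of 16 in CEC, 4 in Nissle, 7 in DNBS and 7 in all DNBS-treated over healthy samples, where the panel's shares were 3.87%, 9.49%, 14.6% and 12.1%. Against DNBS samples 2 of 16 were higher in CEC (median −0.69) and 1 of 16 in Nissle (median −0.53), where the panel had 48% and 45% higher with medians of −0.02 and −0.06. These comparisons share the DNBS or the healthy samples. This list, like the others here, was chosen with earlier results of these data known. Its counts describe the list and do not test the action of IL-17 or IL-22.

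The target genes differed in size among themselves, and no test set one kind of target against another. Cxcl2, a neutrophil chemokine, had 3.22 in CEC, 3.57 in Nissle and 4.78 in DNBS over healthy samples (limma adjusted p in DNBS = 0.122). The calprotectin genes, abundant in neutrophils, had 2.30, 3.17 and 3.96 (S100a9) and 1.94, 3.05 and 3.83 (S100a8, assay Mm01220132_g1) in that order. The neutrophil chemokines Cxcl1 and Cxcl5 had differences nearer to 0 than Cxcl2, Cxcl1 with 1.07, 1.47 and 2.15 and Cxcl5 with 0.37, 0.58 and 0.99. The monocyte chemokines had 1.04, 1.86 and 1.79 (Ccl2) and 0.35, 1.42 and 1.90 (Ccl7). Among acute-phase and epithelial defence genes, Saa3, an acute-phase apolipoprotein, had 1.19, 1.26 and 2.19, Saa1 had 1.38, 0.90 and 1.29, and Muc1, a membrane mucin, had 0.74, 0.43 and 0.85. Reg3g, an antibacterial lectin, had 0.18, −0.04 and 0.56, and Reg3a, of the same family, had 0.66, −0.15 and 0.01. Ccl20, the ligand of Ccr6, had −0.03, −0.10 and 0.48. Csf3, the neutrophil growth factor induced by IL-17, was not tested by level and amplified in 3 of 5 CEC, 4 of 5 Nissle, 5 of 5 DNBS and 2 of 5 healthy samples.

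**Figure D5:**
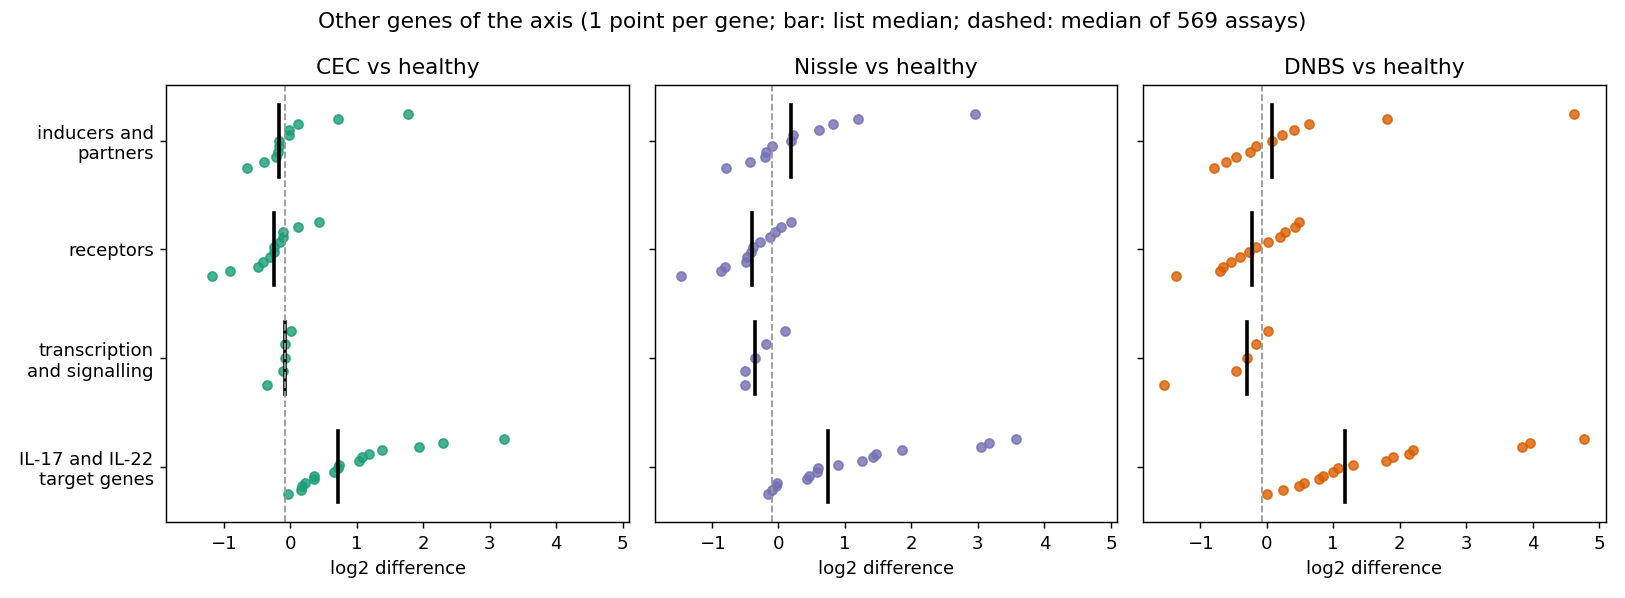
Log2 difference over healthy samples of the inducers, receptors, signalling genes and targets of the axis in CEC, Nissle and DNBS samples, 1 point per gene, with the list median as a bar and the median of all 569 assays dashed. The target genes lie above the dashed line in most cases, and all 16 have a difference above 0 in DNBS.

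None of the measured markers of other cells passed in limma in any comparison, and their sums were not tested against the members. The summed level of 7 neutrophil markers (Camp, Fpr1, Il8rb, Ltf, Ncf1, S100a8 and S100a9) was 0.95 to 4.41 in CEC, 1.35 to 7.18 in Nissle and 1.84 to 5.63 in DNBS samples, and 0.92 to 2.06 in healthy samples. S100a8 and S100a9 are in both this list and the target list, and they weigh most in the sum (6.48 and 5.48 in Nissle 1). In DNBS over healthy samples 7 of 7 had a higher mean, against 44.6% of the panel. For Camp, Fpr1 and Ncf1 the means were close, −5.52, −0.38 and 0.60 in DNBS against −5.66, −0.47 and 0.41 in healthy samples. The 6 macrophage and dendritic cell markers spanned 1.99 to 3.52, 1.75 to 3.86 and 1.62 to 2.42 in those groups, and 1.45 to 2.03 in healthy samples. Markers of the lymphocytes that make IL-17 and IL-22 were few on the panel. Of 13 named T-cell markers only Cd4 and Cd28 were measured, with a summed level of −0.67 to −0.20 in CEC, −1.53 to 0.16 in Nissle and −1.25 to −0.10 in DNBS samples, and −0.36 to 0.58 in healthy samples. Il7r and Kit, markers of innate lymphoid cells that other cells also express, summed to 0.93 to 1.26, −0.05 to 1.33 and 0.45 to 1.30 in those groups, and 1.19 to 1.64 in healthy samples. The 3 epithelial markers summed to 8.85 to 9.71, 7.73 to 9.56 and 7.83 to 8.97, and 7.40 to 9.55 in healthy samples, with medians of 9.27 in CEC, 9.03 in Nissle and 8.18 in DNBS, and 9.35 in healthy samples. In DNBS over healthy samples 3 of 3 had a lower mean (median −0.72, 1 at an unadjusted p under 0.05). In CEC over DNBS samples 3 of 3 had a higher mean (median 1.12, 3 at an unadjusted p under 0.05), where the panel's share was 10.7%. No measured marker was undetected in all samples. Cd4 had a difference of −0.80 (limma adjusted p = 0.229) and Kit of −0.71 in DNBS over healthy samples. The other marker of each list differed less. Cd28 averaged −3.15 in DNBS and −2.79 in healthy samples, and Il7r averaged −1.75 and −1.59. The part of cell makeup in the levels of Il22;Iltifb, Il17a, Il17f and Il23a was not tested.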

How the data were processed

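The table deposited by the authors holds raw Ct values of 648 assays in 20 samples, non-normalized per the file headers. The header also calls the table a truncated example. A Ct of 40 filled 1273 of 12960 cells (9.82%), and 1 cell was empty. RNA came from the mirVana kit and cDNA was cycled on TaqMan OpenArray cards, per the labels' protocols. Baseline and threshold settings are not given in the sources used here.

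Relative levels were computed as described with the results, and a Ct of 40 was left missing. The mean Ct of the common assays was 22.6 to 24.3 per sample. Replicates held no identical values, with an SD of differences of 0.606 to 1.97 cycles. The number of samples limits the precision. Group means of all 20 samples were fitted with limma 3.58.1 in R 4.3.3 (empirical Bayes with trend, two-sided). Fisher's exact test of detection was run in scipy 1.17.1, with numpy 2.4.6, pandas 2.3.3 and matplotlib 3.10.9 under Python 3.11.15. The fit was tested on simulated data. A RefSeq gene table updated the symbols to GRCm38.p6 (21 renamed). No batch is named in the labels.

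Genes named are the members, the top 3 by likeness, and members of lists of the pathway. The members and lists were chosen with earlier results of these data known. Same-numbered DNBS and healthy samples correlated at 0.136 to 0.491 in all 3 pairs, so the fit with the number as a block is given where a count changed. This pairing is read from the data, as no label gives it. Other same-numbered samples correlated at −0.401 to −0.146 (Nissle and healthy), −0.273 to 0.353 (Nissle and DNBS) and −0.118 to 0.342 (CEC and DNBS). Those of CEC and Nissle had −0.355 to 0.436, and those of CEC and healthy 0.114 to 0.130. Alternatives covered the reference, undetermined values, filters, weights, samples of contradictory label, the block and leaving out each sample.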

Additional observations from a re-analysis of the deposited data

How the results depend on the processing

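The 21 log2 differences were refitted 669 times, 1 refit passed 0.05 and 23 had the other sign, 10 of them among 399 that left out 1 sample. The refit that passed was Il22;Iltifb in DNBS over healthy samples under array weights (3.20, adjusted p = 0.0484). The number of passing assays in CEC over healthy samples, 1 as reported, was 0 with quantile normalization, no normalization, no trend, the groups compared alone, without the 3 Nissle samples of contradictory label or with the replicate block, and 2 with the Ct of 40 kept. In Nissle over healthy samples it was 0 with no normalization, the groups alone, without those 3 samples or with the block, and 3 with the Ct of 40 kept. In DNBS over healthy samples it was 0 with no normalization, 90 with array weights, 9 with the groups alone and 2 with the block. In all DNBS-treated over healthy samples it was 0 with no normalization or the block, 2 with the Ct of 40 kept or without the 3 Nissle samples, and 3 with array weights. In CEC over DNBS samples it was 21 with array weights, against 0. Leaving out 1 sample gave 0 to 1 in CEC and in Nissle over healthy samples and 1 to 7 in DNBS over healthy samples (7 without DNBS 5, 6 without Nissle 1). Signs turned as follows, none of them passing. Il17a in CEC over healthy samples was 0.36 with Ct above 30 left missing. Il17f was −0.055 in CEC and −0.49 in Nissle over healthy samples under array weights. With the block it was −0.25 in Nissle over healthy and 0.49 in CEC over DNBS samples. With the Ct of 40 kept it was −2.69 in DNBS and −0.50 in all DNBS-treated over healthy samples, and 3.40 in CEC and 3.18 in Nissle over DNBS samples. Without the 3 Nissle samples, which leaves Nissle 1 and Nissle 2, Il17f was 0.26 in Nissle over DNBS samples and −1.25 in CEC over Nissle samples. Il22;Iltifb was then −1.16 in CEC over Nissle samples. With no normalization Il17f was −0.18 in CEC over Nissle samples. Leaving out 1 sample gave −0.47 to 0.15 for Il17a in CEC over healthy, −0.40 to 1.03 for Il17f in Nissle over healthy, −0.32 to 1.10 for Il17f in CEC over Nissle and −0.036 to 1.74 for Il22;Iltifb in CEC over Nissle samples. The cause was not tested. Of 36 alternatives of the 18 detection comparisons 5 turned, with a smallest adjusted p of 0.771. With a Ct below 30 as detected, Il17f was 40 percentage points higher in DNBS and in all DNBS-treated (40) over healthy samples. Without the 3 Nissle samples, Il23a in Nissle over healthy samples was 10 points higher by g1 and 10 by m1, and by m1 1.67 points higher in all DNBS-treated over healthy samples. Groups alone was not run for all DNBS-treated samples. Il17f and Il22;Iltifb had no fitted difference with Ct above 30 left missing, as fewer than 3 healthy values of each remained. Il17f had none with a value required in all 20 samples. Centring runs of 54 assays of the table, chosen after seeing the data, turned no sign.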
